A study of Mus musculus with 8 samples.

Results

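The genes described here are 10 markers of bile duct epithelium and of the ductular reaction, measured in mouse liver RNA: Spp1, Epcam, Cd24a, Tspan8, Cldn7, Krt7, Krt8, Krt18, Krt19 and Sox9. They were taken by symbol from the 22923 symbols listed, and all 10 had a value above 0 in all 4 groups. The groups were livers of C57BL/6 mice lacking hepatic Xbp1 (genotype Xbp1-/-, here knockout) after 4 weeks on a high-fat diet that also held the equivalent of high-fructose corn syrup, livers of flox controls (Xbp1flox) on that diet, knockout livers on regular chow, and flox livers on chow. Each cohort held 4 mice, pooled into 2 libraries. The sources used here do not give the promoter that drove the deletion, nor the age or sex of the mice. For each gene, 1 deposited value per group was analysed, in RPKM (read counts scaled by transcript length and by mapped reads), so no difference below has a replicate check, a standard error or a p-value.

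Cholangiocytes, the epithelial cells that line the bile ducts, carry the keratins KRT7 and KRT19, the adhesion molecule EPCAM and the transcription factor SOX9, and are a small part of the cells of a healthy liver. In chronic liver injury, small ductules and cells with biliary and progenitor features can expand around the portal tract, which is called the ductular reaction. Hepatocytes themselves make KRT8 and KRT18, the keratins of simple epithelia, so these genes are not specific to ducts. In whole liver, more cells of a type and more RNA per cell cannot be told apart.

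Xbp1 itself, whose product is a transcription factor active in the unfolded protein response, stood at 34.1 RPKM in knockout high fat against 90.7 RPKM in flox high fat, and at 44.2 RPKM in knockout chow against 112 RPKM in flox chow. Between 9713 and 10055 genes reached 1 RPKM per group. Of the 10 markers, 9 reached 1 RPKM in at least 1 group. Epcam, Cldn7 and Krt19 reached it in knockout high fat alone, and Krt7 in no group. All 10 were kept, whatever their level. Depth per library is unknown, so the counting error of values below about 1 RPKM cannot be given.

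The markers that separate ducts from hepatocytes were highest in knockout livers on the high-fat diet, and the keratins shared with hepatocytes differed little between groups. Below, rose and fell are used for a change of at least 1 on the scale log2(RPKM + 1), which is 2-fold for abundant genes and understates the change of low ones. On the high-fat diet, 4 of the 10 markers rose in knockout against flox livers, namely Spp1, Tspan8, Cd24a and Epcam, and 0 fell, where 1.07% of 10327 genes rose. The median log2 change was 0.77 over the 10 markers and -0.13 over all genes. On chow, 0 of the 10 rose and 0 fell, where 0.252% of 10322 genes rose, and the median log2 change was 0.22 over the markers and -0.02 over all genes. The log2 change of each of the 10 was above 0 on both diets, from 0.10 to 2.27 on the high-fat diet and from 0.06 to 0.97 on chow. With a pseudocount of 5 RPKM in place of 1, Spp1 was the 1 marker that rose on the high-fat diet, since the other 3 lie at low levels. The markers were chosen with earlier results of these data known, so shares of all genes, here and below, are no test of them.

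Counted by the plain ratio of RPKM values, without a pseudocount or a filter, 6 of the 10 markers were at least 2-fold higher in knockout than in flox livers on the high-fat diet, against 9.98% of 15708 genes. On chow 3 of 10 were, against 5.36% of 15452 genes. The median knockout to flox ratio of the 10 was 3.17 on the high-fat diet and 1.65 on chow, beside 0.945 and 1.001 over all genes.

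**Figure D1:**
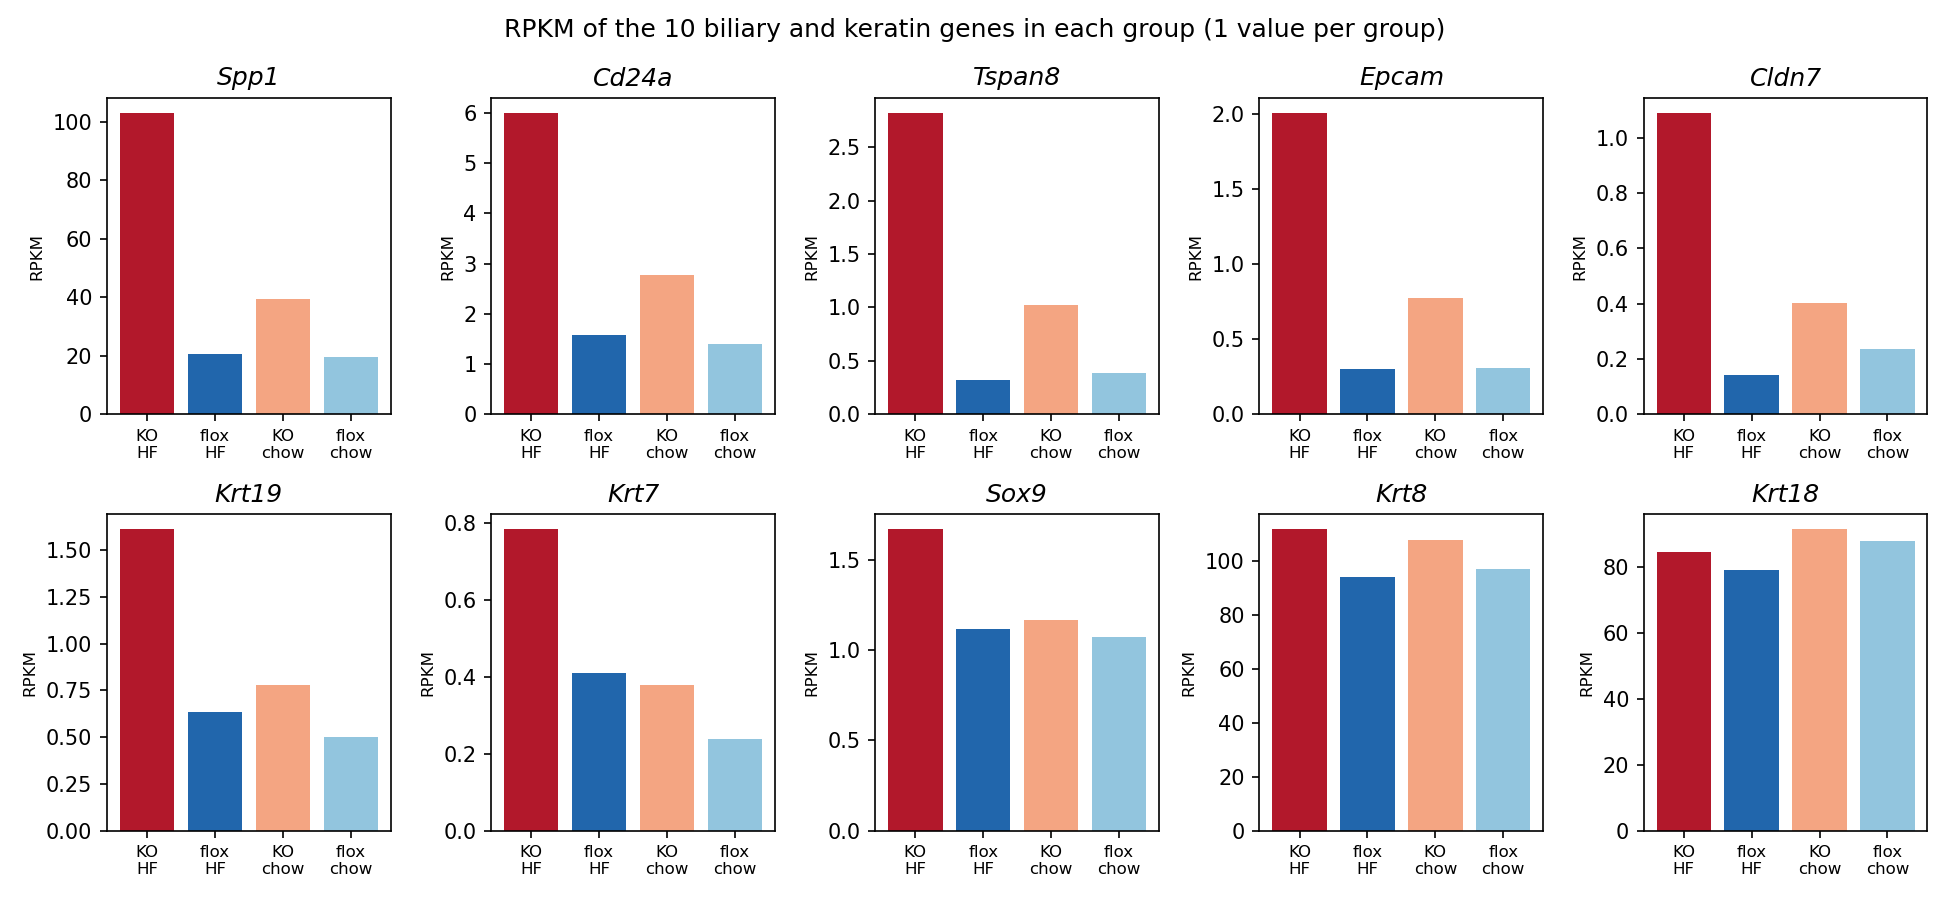
RPKM of each of the 10 markers in knockout (KO) and flox livers on the high-fat diet (HF) and on chow, with the 1 deposited value per group as a bar and a separate axis from 0 for each gene. Spp1 stands at 103 RPKM in knockout high fat and at 39.4 RPKM or below in the other 3 groups, while Krt8 lies between 94.1 and 112 RPKM in all 4.

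Spp1 (mm10 chromosome 5, 104435111 to 104441053) was the most abundant of the markers that rose. It encodes osteopontin, a secreted matrix protein and cytokine that binds integrins and CD44 and is made by cholangiocytes, macrophages and other cells of injured tissue. It stood at 103 RPKM in knockout high fat against 20.6 RPKM in flox high fat, and at 39.4 RPKM in knockout chow against 19.7 RPKM in flox chow. Both flox values were close together, and both knockout values lay above them. The knockout to flox ratio was 4.99 on the high-fat diet (log2 change 2.27, rank 13 from the highest of 10327 genes). On chow the ratio was 2.002 (log2 change 0.97, rank 28 of 10322), just under the threshold.

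On the high-fat diet the largest ratios, from low levels, belonged to 3 genes for surface and junction proteins of duct epithelium, Tspan8, Cldn7 and Epcam. Tspan8 (chromosome 10, 115816817 to 115849893) encodes a tetraspanin of epithelial membranes. It was listed at 2.82 RPKM in knockout high fat against 0.325 RPKM in flox high fat, and at 1.03 RPKM in knockout chow against 0.389 RPKM in flox chow. Its knockout to flox ratio was 8.67 on the high-fat diet (log2 change 1.53), the highest ratio of the 10 markers, and 2.64 on chow (log2 change 0.55).

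Epcam (chromosome 17, 87635979 to 87651127) encodes a homophilic adhesion molecule of duct and progenitor cells that mature hepatocytes lack. Its level was 2.01 RPKM in knockout high fat against 0.302 RPKM in flox high fat, and 0.772 RPKM in knockout chow against 0.308 RPKM in flox chow. Flox livers thus had nearly the same low level on both diets. The knockout to flox ratio was 6.63 on the high-fat diet (log2 change 1.21) and 2.51 on chow (log2 change 0.44).

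Cd24a (chromosome 10, 43579169 to 43584265) encodes a small glycosylphosphatidylinositol-anchored surface glycoprotein found on liver progenitor cells and on several kinds of blood cell. It had 6.00 RPKM in knockout high fat against 1.58 RPKM in flox high fat, and 2.77 RPKM in knockout chow against 1.40 RPKM in flox chow. Its knockout to flox ratio was 3.79 on the high-fat diet (log2 change 1.44) and 1.98 on chow (log2 change 0.65). Cldn7 (chromosome 11, 69964779 to 69967886) encodes a claudin of tight junctions and of the basolateral membrane, and did not reach the threshold. It was listed at 1.09 RPKM in knockout high fat against 0.143 RPKM in flox high fat, and at 0.404 RPKM in knockout chow against 0.237 RPKM in flox chow. The ratio of Cldn7 on the high-fat diet was 7.61 (log2 change 0.87), larger than that of Epcam on the plain scale and smaller with the pseudocount.

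The keratins split into a hepatocyte pair and a duct pair. Keratin filaments are built from equal parts of a type II and a type I chain, and KRT8 with KRT18 form the filaments of hepatocytes and of other simple epithelia. Krt8 (type II, chromosome 15, 101996711 to 102004342) had 112 RPKM in knockout high fat against 94.1 RPKM in flox high fat, and 108 RPKM in knockout chow against 97.0 RPKM in flox chow. Krt18 (type I, chromosome 15, 102028216 to 102032026) had 84.5 RPKM in knockout high fat against 79.0 RPKM in flox high fat, and 91.3 RPKM in knockout chow against 87.9 RPKM in flox chow. For both genes the knockout to flox ratio lay between 1.04 and 1.19. Krt18 was the 1 marker of the 10 that was not highest in knockout high fat, since both of its chow values were above both of its high-fat values. Its log2 change with the diet in knockout livers, -0.11 as deposited, was 0.04 when groups were scaled to equal medians of the log2 ratio and 0.18 when scaled with the 50 most abundant genes left out.

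The ratio of Krt8 to Krt18 levels was 1.32 in knockout high fat against 1.19 in flox high fat, and 1.18 in knockout chow against 1.10 in flox chow. In each group this pair made up between 97.3% and 98.8% of the RPKM summed over the 48 keratin genes listed.

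The duct pair KRT7 and KRT19 was present at far lower levels. Krt19 (type I, chromosome 11, 100140810 to 100145926) had 1.61 RPKM in knockout high fat against 0.632 RPKM in flox high fat, and 0.780 RPKM in knockout chow against 0.498 RPKM in flox chow. Its knockout to flox ratio was 2.55 on the high-fat diet (log2 change 0.68) and 1.57 on chow (log2 change 0.25). Krt7 (type II, chromosome 15, 101412403 to 101427806) had 0.784 RPKM in knockout high fat against 0.411 RPKM in flox high fat, and 0.379 RPKM in knockout chow against 0.238 RPKM in flox chow. Its ratio was 1.91 on the high-fat diet (log2 change 0.34) and 1.59 on chow (log2 change 0.16). Krt7 and Krt19 together held 1.19% of the keratin sum in knockout high fat against 0.588% in flox high fat, and 0.575% in knockout chow against 0.393% in flox chow.

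Sox9 (chromosome 11, 112782210 to 112787757) encodes the transcription factor of the developing bile duct and of progenitor-like cells. By the plain ratio it differed least among the markers restricted to ducts, while on the log2 scale its change on the high-fat diet was close to that of Krt7. Its level was 1.67 RPKM in knockout high fat against 1.12 RPKM in flox high fat, and 1.17 RPKM in knockout chow against 1.07 RPKM in flox chow. The knockout to flox ratio was 1.49 on the high-fat diet (log2 change 0.33) and 1.09 on chow (log2 change 0.07).

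**Figure D2:**
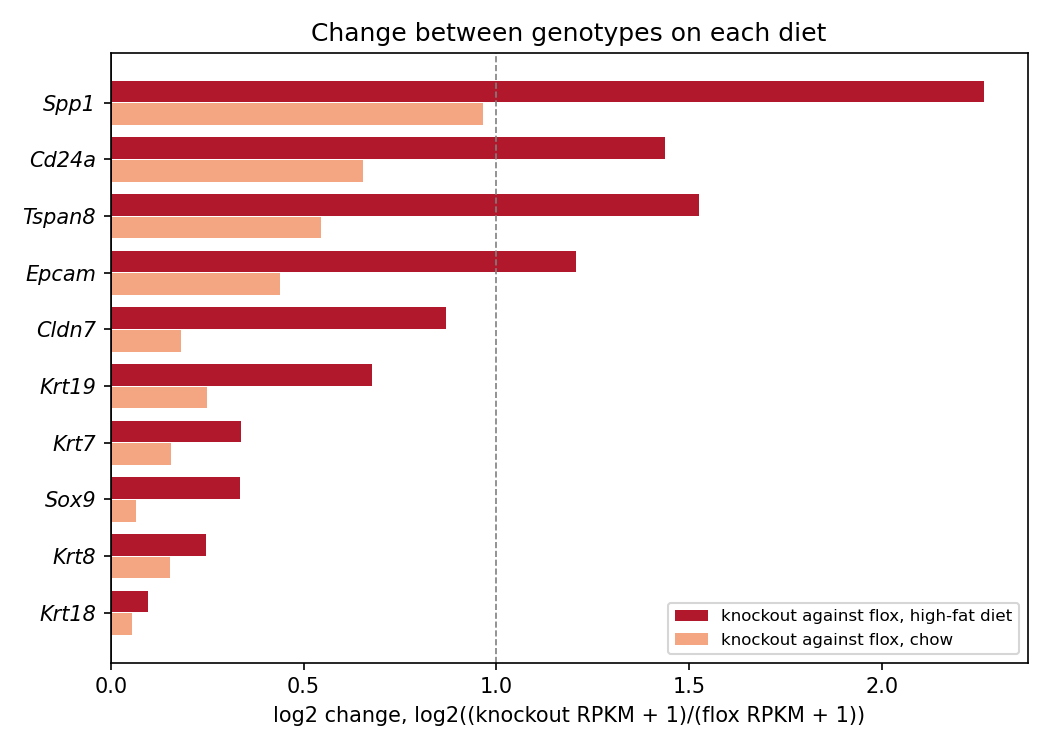
Log2 change of the 10 markers in knockout against flox livers, with the high-fat diet as the upper dark bar and chow as the lower light bar of each gene, from log2(RPKM + 1) of 1 value per group, and the threshold of 1 as a dashed line. Spp1, Cd24a, Tspan8 and Epcam pass the line on the high-fat diet, none does on chow, and the high-fat bar is the longer of each pair.

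The diet went with higher levels of the duct markers in knockout livers and with little difference in flox livers. In knockout livers on the high-fat diet against chow, 1 of the 10 markers rose, Spp1 (103 RPKM on high fat against 39.4 RPKM on chow, log2 change 1.36), and 0 fell, where 0.668% of 10328 genes rose. By the plain ratio 7 of 10 were at least 2-fold higher, all except Sox9, Krt8 and Krt18, against 9.06% of 15826 genes, and these 7 ratios lay close together, between 2.06 and 2.75. In flox livers 0 of the 10 rose and 0 fell, where 0.213% of 10322 genes rose, and 0 of 10 had a ratio of at least 2, against 4.35% of 15363 genes. The flox ratios ran between 0.603 for Cldn7 and 1.73 for Krt7, both at levels below 0.5 RPKM in flox livers. The median high-fat to chow ratio was 2.12 over the 10 markers in knockout livers and 1.01 in flox livers. The knockout comparison and the diet comparison both use the knockout high-fat value, so the first pattern is not separate from the second.

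The genotype difference on the high-fat diet minus that on chow, on the log2 scale, was above 0 for all 10 markers, from 0.04 for Krt18 to 1.30 for Spp1, with a median of 0.56 against -0.10 over all genes. It reached 1 for Spp1, 1 of 10, where 0.659% of 10319 genes did, and Tspan8 followed with 0.98. As a plain ratio of ratios it was 4.47 for Cldn7, 3.28 for Tspan8, 2.64 for Epcam and 2.49 for Spp1. Summed over Epcam, Cd24a, Tspan8, Cldn7, Krt7, Krt19 and Sox9, the level was 16.0 RPKM in knockout high fat against 4.51 RPKM in flox high fat (ratio 3.54), and 7.30 RPKM in knockout chow against 4.14 RPKM in flox chow (ratio 1.76).

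Promoter sequence is shown for the markers that rose and had an entry in the RefSeq promoter table (GRCm38.p6, the assembly that mm10 denotes), with Krt8 beside them as a marker that hardly differed. Each run holds the 250 bases before an annotated start (for Spp1 the first of 2 in the table), 5′ to 3′ on the strand of the gene. Capitals mark matches to any of the motifs searched. The Tspan8 window lies within the gene span given above, before a start downstream of the first base of that span. The windows are chr5:104434861-104435110 (plus strand) for Spp1, chr10:115817034-115817283 (plus strand) for Tspan8, chr17:87635729-87635978 (plus strand) for Epcam and chr15:102004343-102004592 (minus strand) for Krt8.
Spp1: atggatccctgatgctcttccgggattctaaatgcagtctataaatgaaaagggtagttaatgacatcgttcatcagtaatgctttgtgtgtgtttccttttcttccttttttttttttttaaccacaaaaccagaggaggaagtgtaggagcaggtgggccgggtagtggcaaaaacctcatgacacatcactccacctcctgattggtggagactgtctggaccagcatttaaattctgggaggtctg
Tspan8: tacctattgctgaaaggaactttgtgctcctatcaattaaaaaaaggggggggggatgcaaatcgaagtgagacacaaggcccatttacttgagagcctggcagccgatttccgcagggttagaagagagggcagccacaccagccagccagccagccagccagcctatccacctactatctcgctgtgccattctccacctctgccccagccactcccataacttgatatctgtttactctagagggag
Epcam: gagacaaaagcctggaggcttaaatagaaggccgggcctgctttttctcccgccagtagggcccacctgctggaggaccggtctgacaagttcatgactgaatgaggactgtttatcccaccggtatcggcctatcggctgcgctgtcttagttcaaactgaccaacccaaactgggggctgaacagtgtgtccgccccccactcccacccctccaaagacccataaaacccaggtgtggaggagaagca
Krt8: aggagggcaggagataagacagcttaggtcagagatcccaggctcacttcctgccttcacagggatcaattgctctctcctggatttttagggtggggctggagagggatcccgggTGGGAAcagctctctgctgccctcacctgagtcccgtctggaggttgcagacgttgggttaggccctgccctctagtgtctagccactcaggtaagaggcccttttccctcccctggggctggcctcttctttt

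Each motif was searched on both strands of the 300 bases from 250 before to 50 after a start. Of the 10 markers, Spp1, Epcam, Tspan8, Cldn7, Krt7, Krt8 and Krt18 matched an entry, with 9 starts. The AP-1 letters TGACTCA or TGAGTCA occurred at 0 of the 9 starts, against 5.2% of 32851 starts in the table, and the SOX letters ACAATG at 0, against 12.6%. The TEAD letters GGAATG occurred at 1 start of Cldn7 (14.7% of all starts) and the RBPJ letters TGGGAA at the other start of Cldn7 and at Krt8 (25.6%). A match is a string of letters and no sign of binding, and these counts are too few to compare with the table.

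Other genes listed as markers of bile duct epithelium differed in both directions among those that reached 1 RPKM. Some of these stood far above Krt19 (1.61 RPKM) in knockout high fat, among them Cldn3 (64.0 RPKM), Anxa5 (88.2 RPKM) and Pigr (94.8 RPKM). Whether their RNA came from ducts was not tested. Of the 29 genes in that list, all were listed and 14 reached 1 RPKM. On the high-fat diet 1 of those 14 rose in knockout livers, where 1.07% of all genes rose. This was Anxa5 (88.2 RPKM in knockout against 43.0 RPKM in flox), an annexin that binds phosphatidylserine. Another 2 fell. These were Wfdc2 (2.097 RPKM against 8.77 RPKM) and Pigr (94.8 RPKM against 248 RPKM), the receptor that carries immunoglobulin A into bile, where 1.86% of all genes fell, and the median log2 change was -0.04. On chow 0 of the 14 rose and 0 fell. By the plain ratio on the high-fat diet, 13 of 29 were at least 2-fold higher, against 9.98% of all genes, and 2 at most 0.5-fold. On chow 7 of 27 were at least 2-fold higher, against 5.36%, and 2 at most 0.5-fold. Most of these genes lie below 1 RPKM. Chosen after their values were seen, examples are Bicc1, a cilium-linked RNA-binding protein of ducts (1.63 RPKM in knockout against 0.407 RPKM in flox), the mucin Muc1 (1.10 RPKM against 0.295 RPKM), Prom1 (0.739 RPKM against 0.153 RPKM) and Cldn4 (0.376 RPKM against 0.0326 RPKM). The water channel gene Aqp1 (22.8 RPKM against 24.5 RPKM) stood near equal. Sctr, the secretin receptor of large ducts, was at or under 0.0407 RPKM in every group and listed at 0 in both chow groups.

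**Figure D3:**
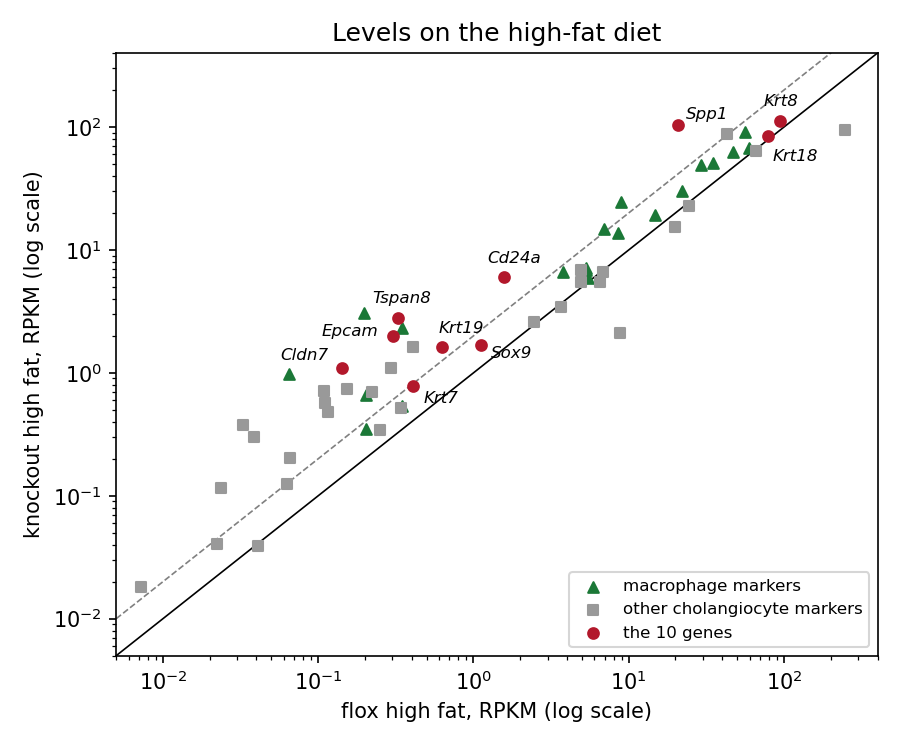
RPKM in knockout high fat (vertical, log scale) against flox high fat (horizontal, log scale) for the 10 markers (circles, named), the other cholangiocyte markers (squares) and the macrophage markers (triangles), 1 value per group; the solid line marks equal levels and the dashed line 2-fold. Spp1, Cd24a, Tspan8, Epcam, Cldn7 and Krt19 lie above the dashed line, and Krt8 and Krt18 next to the solid one.

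Genes of several signals tied to the ductular reaction were listed. NOTCH signalling sets duct fate in the embryo, and of 15 listed genes 5 reached 1 RPKM and 0 of them rose or fell in knockout livers on either diet. Jag1, which encodes the ligand of the portal tract, stood at 0.747 RPKM in knockout high fat against 0.516 RPKM in flox high fat. The target Hes1 stood at 5.61 RPKM against 6.95 RPKM, and Hey2 at 0.0485 RPKM against 0.0718 RPKM. Hey1 (0.437 RPKM against 0.264 RPKM), Heyl (0.766 RPKM against 0.503 RPKM) and Nrarp (0.686 RPKM against 0.507 RPKM) differed the other way, all below 1 RPKM. In the Hippo pathway, which restrains the coactivator YAP, 0 of 17 genes rose or fell on either diet. Of all genes, 1.07% rose and 1.86% fell on the high-fat diet, and 0.252% and 1.37% on chow. With shares this small, a count of 0 in a short list, here and below, does not set it apart from all genes. Yap1 had 9.64 RPKM in knockout high fat against 12.0 RPKM in flox high fat, and its target Cyr61 had 4.80 RPKM against 2.67 RPKM (log2 change 0.66). Other genes of this list differed in both directions, with a log2 change of 0.70 for Jub, 0.31 for Ctgf and -0.53 for Amotl2. The median log2 change of the 17 genes on the high-fat diet was 0.08.

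Among ligands and receptors of progenitor signalling, 2 of 12 rose on the high-fat diet (1.07% of all genes) and 0 on chow (0.252%). Tnfrsf12a, the receptor of the cytokine TWEAK, stood at 8.49 RPKM in knockout high fat against 3.13 RPKM in flox high fat (log2 change 1.20), and at 5.20 RPKM in knockout chow against 3.77 RPKM in flox chow. Areg, which encodes the EGF receptor ligand amphiregulin, stood at 2.11 RPKM in knockout high fat against 0.0248 RPKM in flox high fat, and at 0.0386 RPKM in knockout chow against 0.0460 RPKM in flox chow. It passed 1 RPKM in the first of these groups alone. Of the osteopontin receptors, 0 of 7 rose or fell on either diet. Cd44 had 3.55 RPKM in knockout high fat against 2.59 RPKM in flox high fat, and Itgav 2.70 RPKM against 2.73 RPKM.

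Partners of keratin filaments and of the inclusions that keratins form with SQSTM1 in stressed hepatocytes did not pass the threshold, with 0 of 12 on both diets. Sqstm1 had 164 RPKM in knockout high fat against 134 RPKM in flox high fat. Ppl, the cytolinker periplakin, came nearest, with 3.62 RPKM against 1.43 RPKM (log2 change 0.93).

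Relatives of the markers were looked up by symbol. Of the 8 claudin genes with at least 1 RPKM, which include the marker Cldn7, 0 rose or fell in either knockout comparison. The abundant Cldn3 had 64.0 RPKM in knockout high fat against 66.0 RPKM in flox high fat. Among 9 genes with a Tspan symbol Tspan8 was the 1 that rose on the high-fat diet, while the most abundant of them, Tspan31, had 87.1 RPKM against 134 RPKM (log2 change -0.62). Tetraspanins with other symbols were not searched for. Cd63 (15.3 RPKM against 4.40 RPKM, log2 change 1.59) and Cd9 (24.6 RPKM against 8.96 RPKM, log2 change 1.36) rose on the high-fat diet. Cd63 was met through its nearness to the Spp1 profile and Cd9 as a macrophage marker, so they do not stand for the family.

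Other liver cells also make some of these genes, Spp1 and Cd24a among them. Of 16 macrophage markers, 3 rose on the high-fat diet (1.07% of all genes) and 0 on chow (0.252%). The 3 were Mmp12 (3.08 RPKM in knockout against 0.197 RPKM in flox), Cd9 (24.6 RPKM against 8.96 RPKM) and Trem2 (2.30 RPKM against 0.349 RPKM). Mmp12 and Trem2 reached 1 RPKM in knockout high fat alone. Their 20 listed genes summed to 460 RPKM in knockout high fat against 309 RPKM in flox high fat, and 295 RPKM in knockout chow against 276 RPKM in flox chow. Clec4f, of Kupffer cells, had 50.7 RPKM in knockout high fat against 34.8 RPKM in flox high fat, and Gpnmb, of lipid-laden macrophages, 0.973 RPKM against 0.0646 RPKM. The part of macrophages in the Spp1 result was not tested.

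Mesothelium, the surface layer of the liver, also carries simple keratins. Its 6 markers summed to 1.87 RPKM in knockout high fat against 2.20 RPKM in flox high fat, and 2.04 RPKM in knockout chow against 2.22 RPKM in flox chow, with Msln at or below 0.496 RPKM, Upk3b at or below 0.842 RPKM and Wt1 at or below 0.119 RPKM. Of 14 listed markers of intestine and pancreas, 9 were at 0 in all 4 groups, among them Cdx1, Cdx2, Prss2 and Pnlip. Their sum was 45.2 RPKM in knockout high fat against 166 RPKM in flox high fat, and 38.8 RPKM in knockout chow against 74.4 RPKM in flox chow, most of it Fabp2, which fell on both diets. Of 13 stellate cell and fibroblast markers, 2 rose on the high-fat diet (1.07% of all genes) and 0 on chow (0.252%). The 2 were Col3a1 (11.3 RPKM in knockout against 4.23 RPKM in flox) and Col1a1 (4.78 RPKM against 1.51 RPKM). This list of 15 genes summed to 233 RPKM in knockout high fat against 154 RPKM in flox high fat, and 189 RPKM in knockout chow against 158 RPKM in flox chow.

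Endothelial markers had 0 of 9 genes past the threshold on either diet and summed to 93.4 RPKM in knockout high fat against 94.7 RPKM in flox high fat, and 89.6 RPKM in knockout chow against 97.5 RPKM in flox chow. Lymphocyte and neutrophil markers had 0 of 4 past it and summed to 11.4 RPKM in both high-fat groups. Their sum on chow was 10.5 RPKM in knockout against 8.67 RPKM in flox livers. Of 13 hepatocyte markers, 3 fell in knockout high fat (Cyp2e1, Apoa1 and Cps1), where 1.86% of all genes fell, and 1 in knockout chow (Cyp2e1), where 1.37% did, and 0 rose on either diet. Apoa1 had 4793 RPKM in knockout high fat against 11270 RPKM in flox high fat. Pck1, which encodes an enzyme of gluconeogenesis, had 582.5 RPKM in knockout high fat against 481.7 RPKM in flox high fat (log2 change 0.27), and 711 RPKM in knockout chow against 422.5 RPKM in flox chow (log2 change 0.75). Alb was listed at 0 in all 4 groups, which can be a failed estimate. The part of these other cell types in the marker values was not tested.

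Of 9 proliferation genes with at least 1 RPKM, 1 rose in knockout livers on the high-fat diet, where 1.07% of all genes rose. This was Ccnd1, which encodes cyclin D1 (19.7 RPKM in knockout against 4.67 RPKM in flox). By the plain ratio 11 of the 15 listed were at least 2-fold higher on the high-fat diet, against 9.98% of all genes, and 0 of 15 on chow, against 5.36%. All but Ccnd1 of these 11 were below 1 RPKM in the other 3 groups, at levels of unknown counting error. On chow Ccnd1 had 5.59 RPKM in knockout against 3.84 RPKM in flox livers.

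Patterns over the 4 groups were compared by the Euclidean distance between log2(RPKM + 1) profiles, each centred on its own mean, over 6081 genes with at least 5 RPKM in 1 group. Nearest to Spp1 was Igfbp1, an insulin-like growth factor binding protein secreted by hepatocytes, at a distance of 0.32. It had 49.7 RPKM in knockout high fat against 7.52 RPKM in flox high fat, and 13.5 RPKM in knockout chow against 7.44 RPKM in flox chow. The cell cycle inhibitor gene Cdkn1a (0.41), the metallothionein gene Mt2 (0.47), the tetraspanin gene Cd63 (0.51) and Ccnd1 (0.51) followed. Nearest to the mean profile of the 10 markers were Lilrb4 (0.07), Usp18 (0.14), Glul (0.14), Tmsb10 (0.14) and Srxn1 (0.14). The distance rests on 4 values per gene and is a description.

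Reads of some markers can come from other loci. In the GENCODE M21 transcripts, 29.7% of the 50-base words of Krt8 also occurred in its pseudogene Krt8-ps or in Gm36026, a non-coding gene on the opposite strand. For Spp1 the share was 11.6%, all in Gm42793, which overlaps it on the same strand, and for Cd24a 2.75%. Krt7 and Tspan8 overlap an antisense gene, and the sources used here do not say whether the counting used strand. For Krt7 the share of words was 0.916%, shared with 162 other genes, and for Krt18 it was 0.72%. No 50-base word of Epcam, Tspan8, Cldn7, Krt19 or Sox9 was shared.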

How the data were processed

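RNA was sequenced from livers of 4 groups of mice, and 8 libraries (2 per group) are labelled. The authors deposited 4 files with 1 RPKM value per gene and group, per the file headers, and the file names give the group. TopHat2 2.0.7, Cuffdiff 2.1.1 and the build mm10 come from the submitters' processing notes, which give no role. Not given in the sources used here are the annotation, the scaling and the way 2 libraries became 1 value. Each file lists 23179 rows, and rows of a repeated symbol (158 symbols) were summed.

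Changes are differences of log2(RPKM + 1), a pseudocount of 1 RPKM, called past the threshold at an absolute value of at least 1. Background shares cover genes that reached 1 RPKM in any group. A gene listed at 0 in a group was left out of comparisons with it. The 10 markers were all kept, a choice added after the design was written, which applied the filter to them too. The members and all gene lists were chosen with earlier results of these data known. Named are all markers and up to 4 genes past the threshold per list. Other genes named are examples, not all of them marked as such, and do not stand for their list. With 1 value per group no test was made. Values times transcript length lay within 0.05 of a whole-read step for between 17.3% and 21.1% of low values, too few to recover reads, so depth is unknown. Promoters and gene coordinates are RefSeq on GRCm38.p6. A listed gene and a motif are not reported here. The steps were tested on simulated data. Python 3.11.15, numpy 2.4.6, pandas 2.3.3 and matplotlib 3.10.9 were used. Alternatives were other pseudocounts (0.1 and 5 RPKM), filters, a 1.5-fold threshold, the highest of repeated rows and 2 rescalings, with 2 more added after the data were seen.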

Additional observations from a re-analysis of the deposited data

Results flagged for a closer look

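The diet went with a higher value in knockout livers and a lower one in flox livers for 4 of the 10 markers and for 8.51% of 10319 genes, a difference that was not tested because each group has 1 value. The log2 change on the high-fat diet against chow was 0.76 in knockout and -0.01 in flox livers for Epcam (difference 0.77), 0.91 and -0.07 for Tspan8 (difference 0.98), 0.57 and -0.11 for Cldn7 (difference 0.69), and 0.05 and -0.04 for Krt8 (difference 0.0934). When groups were rescaled with the 50 most abundant genes left out, the flox change was above 0 for Epcam (0.02) and Krt8 (0.09). The pattern then held for 3 of the 10, Tspan8, Cldn7 and Krt18, against 14.2% of 10522 genes. With equal medians of the log2 ratio it held for 5 of the 10, Epcam, Tspan8, Cldn7, Krt8 and Krt18. The share of all genes was then 15.7% of 10405.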

How the results depend on the processing

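No paired analysis was possible because the files hold 1 value per group, so neither a replicate block nor the removal of a replicate could be run. Of 250 marker values under 5 alternatives (both pseudocounts, both rescalings and the 1.5-fold threshold), 217 kept their side of the threshold. Most marker values lay below the threshold to begin with, so that count says little about those past it. Of the called values 0 reversed, but a new pseudocount or threshold cannot reverse a change between 2 groups. On the high-fat diet the number of markers that rose in knockout livers was 4, with 6 at a pseudocount of 0.1 RPKM, 6 at a 1.5-fold threshold, 5 when rescaled without the 50 most abundant genes, 1 at a pseudocount of 5 RPKM and 2 of the 4 markers left by a filter of 5 RPKM, and the median log2 change was 1.54 at a pseudocount of 0.1 RPKM in place of 0.77. On chow it was 0, with 2 at a pseudocount of 0.1 RPKM, 2 at a 1.5-fold threshold and 1 when rescaled with the 50 most abundant genes left out. In knockout livers the diet count was 1, with 5 at a pseudocount of 0.1 RPKM, 4 at 1.5-fold and 3 under both rescalings. The interaction count was 1, with 4 at 0.1 RPKM, 5 at 1.5-fold and 2 under both rescalings. A larger pseudocount shrinks low genes by construction, and most markers are low. Rescaling moved the median of all genes on the high-fat diet from -0.13 to 0.01 (median ratio) or 0.12 (without the most abundant genes). It moved the counts of all genes that rose and fell from 111 and 192 to 142 and 120 or 193 and 90, and the background share that rose to 1.36% or 1.83%, while the median of the 10 markers was 0.86 or 0.94. In knockout livers on the high-fat diet against chow, 69 genes rose and 82 fell, with 92 and 61 or 134 and 47 after rescaling. For the interaction 68 rose and 59 fell, with 92 and 38 or 105 and 35. In flox livers 22 rose and 44 fell, with 31 and 35 without the most abundant genes. A pseudocount of 0.1 gave 231 and of 5 gave 37 genes that rose on the high-fat diet. Unknown depth limits every value under 1 RPKM.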

Other observations

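A further keratin gene went with the diet and not with the genotype. Krt23, a type I keratin that was not among the 10 markers and was chosen after its values were seen, had 2.38 RPKM in knockout high fat against 0.482 RPKM in knockout chow (log2 change 1.19), and 2.67 RPKM in flox high fat against 0.803 RPKM in flox chow (log2 change 1.03). Between genotypes its log2 change was -0.12 on the high-fat diet and -0.28 on chow. It was the 1 keratin gene of 4 with at least 1 RPKM that passed the threshold in a diet comparison. Of the 48 keratin genes listed, 31 were at 0 in all 4 groups.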
